A study of Danio rerio with 2 samples.

Results

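The genes of the vacuolar-type proton pump, the V-ATPase, were followed in open chromatin of zebrafish hearts, in a library from *heart of stone* (*hos*) mutants and a library from their siblings. The family was chosen on earlier results of these same values, in which the start of *atp6ap1b* had lost signal, and its members were then picked by name alone, as every gene whose symbol begins with *atp6v* or *atp6ap* among the genes assigned to the accessible regions. This gave 26 of 22038 genes and 68 of 41473 regions. There were 9 genes of the membrane sector V0, 12 of the cytosolic sector V1 and 5 accessory genes, and no region listed 2 members. Since the choice used the mutant to sibling ratio itself, the ratios below are a description and no test of the family.

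ATAC-seq uses a transposase to cut accessible DNA and sequences the tagged fragments. Embryos of the *hos* line carrying Tg(myl7:GFP), a reporter of heart muscle cells that both groups share, were taken at 96 h post fertilization, and the protocol names 60 dissected hearts without saying whether per group. The label for the siblings is wt and that for the *hos* fish is mut; the series title places the work on Smarce1, which belongs to the SWI/SNF remodelers of chromatin, and the labels give no allele and no split of the siblings into wild type and heterozygous fish. Each group is 1 library of pooled hearts, so replicates and p-values are lacking, and every difference is one between 2 libraries.

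The V-ATPase uses ATP to pump protons into lysosomes, endosomes, the Golgi and secretory vesicles, and in some cells across the plasma membrane. Its V1 sector splits ATP and turns a rotor, the V0 sector carries the protons through the membrane, and accessory proteins help to assemble and place the pump. The V1 and V0 sectors can come apart and join again as cells are fed or starved, and the assembled pump is needed for the mTORC1 nutrient switch at the lysosome. In fish, cells rich in the pump include skin ionocytes and kidney tubule cells, while most cells, heart muscle included, use it in their lysosomes.

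The signal is the mean pileup of tags over a region, which is a level per length and can be set side by side between genes. Ratios are given as log2((mutant signal + 1)/(sibling signal + 1)), called the log2 ratio here, and folds as the plain quotient of both signals with an exact binomial 95% interval on estimated tags. That interval covers counting error only. Summed over all regions the sibling library held 4091429 estimated tags and the mutant library 4748194. Between 19.9 and 549 tags lay behind each value at a V-ATPase start. In the log2 ratio the median was 0.15 over all regions and 0.25 (95% interval of the median 0.24 to 0.26) over the 14694 promoter regions, which lie within 1000 bp of a gene start, so a promoter with equal signal in both libraries already sat below the middle of all promoters. Here and below, an interval of a median reflects the spread among regions, of which some share a gene. It holds no error between libraries and serves as no test. At the start of *smarce1* the average signal was 87.3 (sibling) and 106 (mutant), 1.22-fold (0.995 to 1.49), which does not check the genotype, since a lesion need not alter accessibility.

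Labels name the tissue as heart and the cell type as cardiomyocytes, although whole hearts were dissected. Of 9 cardiomyocyte markers, 6 had a region at the start, and their summed signal was 298 (sibling) and 464 (mutant), with *myl7* counted although its promoter is also part of the transgene. For endocardium 3 of 5 markers had one (131 and 166), for epicardium 3 of 4 (106 and 81.3) and for kidney tubule 2 of 4 (67.2 and 77.8). Markers within the last 2 groups went both ways. In epicardium *tbx18* and *wt1b* were lower in the mutant and *wt1a* was higher. In kidney tubule *hnf1ba* was higher and *slc4a4a* lower. None of 6 blood and macrophage markers and none of 6 ionocyte markers had a region at the start. Of 3 osteoclast markers only *nfatc1*, which also marks endocardium, had one (81.4 and 81.5), and of 4 skeletal muscle markers only *mylpfa* (31.1 and 5.29). The part of cell makeup in the values below was not tested, and in pooled hearts fewer cells with an open region and less opening per cell cannot be told apart.

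The median log2 ratio over V-ATPase start regions lay below that of all promoter regions, and the sectors differed in their values. With all start regions as deposited, the V0 median did not lie below, and 7 of 13 V0 regions were above the promoter median. With only the region nearest to each start, the V0 median was 0.19, beside 0.25 over all genes. In that setting 5 of 9 V0 genes were below the promoter median. The family was proposed for the low ratio at *atp6ap1b* in these same values, so the shares and medians below describe it and do not test it. Of the 26 genes, 25 had at least 1 of 30 regions within 1000 bp of the start, and *atp6v1c2*, a copy of the C subunit gene, had none. Over these 30 regions the median log2 ratio was 0.045 (95% interval -0.005 to 0.19), or -0.11 with the median of all regions set to 0, with a range from -0.997 to 1.14 as deposited, and 22 (73.3%) lay below the median of all promoter regions. Signal was lower in the mutant in 10 of them (33.3%), against 22.9% of all promoter regions. By sector the median was 0.26 over 13 V0 regions, 0.02 over 12 V1 regions and -0.17 over 5 accessory regions. With lowess centring on mean signal these medians were 0.03, -0.22 and -0.25, beside 0.05 over all promoter regions. Below the promoter median lay 6 of the 13 V0 regions, 11 of the 12 V1 regions and 5 of the 5 accessory regions. Of the 13 V0 regions, 4 were called in the mutant only and so had to be high there. Among all promoter regions 1516 of 14694 were called in the mutant only. Over regions called in both libraries the medians were 0.13 (9 V0 regions), 0.03 (11 V1 regions) and -0.17 (5 accessory regions). The overall level was alike, since the median signal of the 30 regions was 53.6 (sibling) and 53.0 (mutant), while that of all promoter regions went from 46.5 to 54.9. A region was called as accessible in both libraries at 25 of the 30 starts (83.3%), close to the 83.8% of all promoter regions. CpG islands marked 5 of the 30 (16.7%) and 22.9% of all promoter regions, and the 5 had a median log2 ratio of 0.13 against 0.03 for the other 25.

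**Figure D1:**
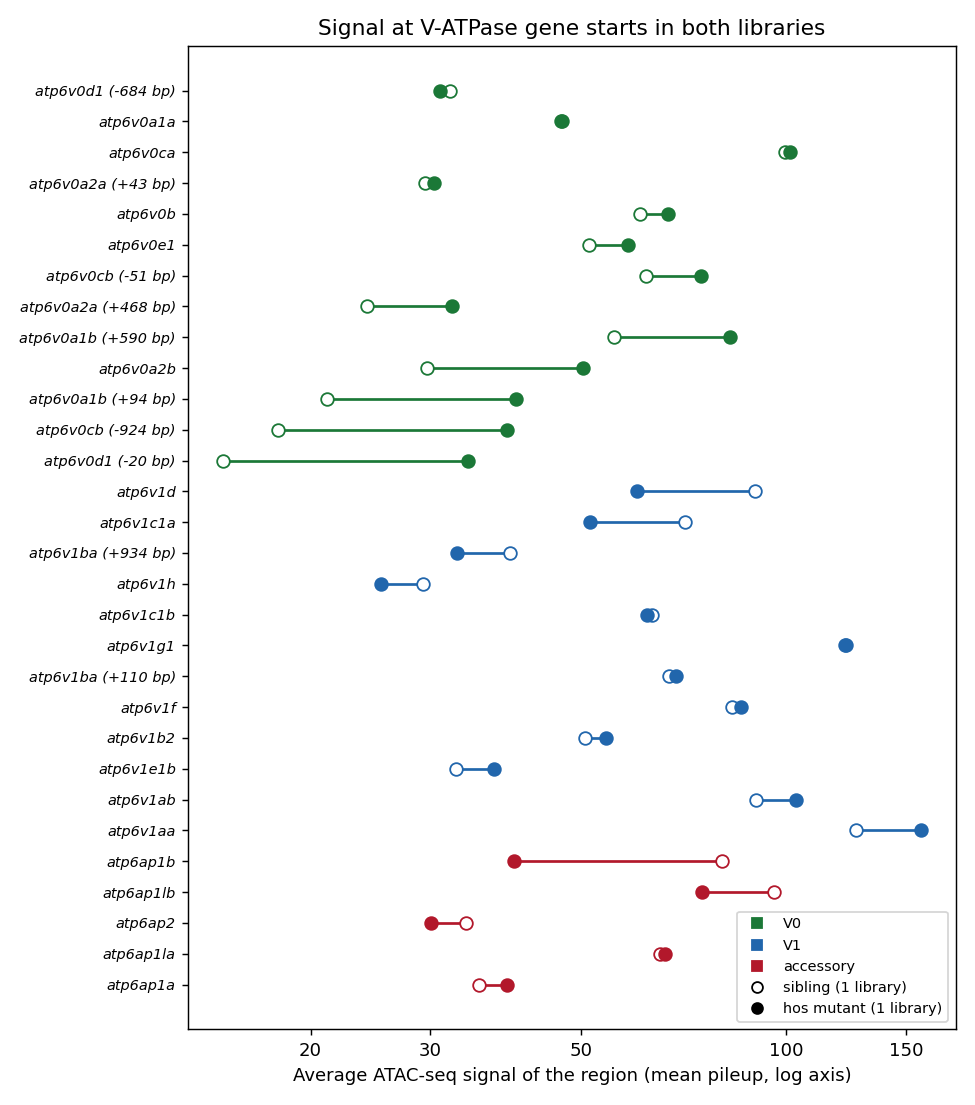
Average signal (log axis) of each of the 30 regions at a V-ATPase gene start, open circles for the sibling and filled circles for the mutant, 1 library each, with lines joining both values and colors for V0, V1 and accessory genes. The widest gap to a higher mutant value is at *atp6v0d1* (14.9 to 34.1) and the widest to a lower one at *atp6ap1b* (80.5 to 39.8).

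Few of these starts passed a 2-fold limit. On the scale of signal + 1 the mutant was at least 2-fold higher at 2 of the 30, beside 2.16% of all promoter regions, and none was at least 2-fold lower, beside 0.857%. The higher regions, *atp6v0cb* at -924 bp and *atp6v0d1* at -20 bp, were both called in the mutant only. Over the 25 regions called in both libraries the higher count was 0. With 1 value per gene, from the region nearest to the start, 1 of 25 genes was past the limit upward (background 1.79%) and none downward (background 0.788%). The counting interval of the fold excluded 1 on the high side in 4 of 25 genes (16%), where 36.8% of all genes with a promoter region did so. On the low side it also did in 4 of 25 (16%), where the background was 3.34%. Those higher were *atp6v0a1b*, *atp6v0a2b*, *atp6v0d1* and *atp6v1aa*, and those lower were *atp6ap1b*, *atp6ap1lb*, *atp6v1c1a* and *atp6v1d*. All 4 lower genes encode accessory or V1 proteins, and 3 of the 4 higher genes encode V0 proteins. Of the higher ones, the regions of *atp6v0a1b* and *atp6v0d1* were called in the mutant only, so they had to be high there. Those of *atp6v0a2b* and *atp6v1aa* also lie at another gene's start (*trmt2a* and *phf23a*), so nothing is read from this split by sector. The shares of genes given above use the same ratio for which the family was proposed, and nothing is read from them about the family.

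In the V0 sector, the largest ratios were at regions called in the mutant only, which had to be high there. Their weak sibling signal is therefore not read as a result. Subunit a anchors the stator in the membrane and directs the pump to a compartment, and it was represented by 4 genes. At *atp6v0a1a* (chromosome 3, 16922067 to 16922486, danRer11) the average signal was 46.8 (sibling) and 46.7 (mutant), a fold of 0.997 (0.727 to 1.35). Its copy *atp6v0a1b* (chromosome 24) had a region at +94 bp, 7631929 to 7632164, with 21.1 and 40.1, a fold of 1.90 (1.11 to 3.36). A stronger region of *atp6v0a1b* at +590 bp had 55.8 and 82.7, a fold of 1.48 (1.14 to 1.92). Both *atp6v0a1b* regions were thus higher in the mutant, while the *atp6v0a1a* start was level. At *atp6v0a2a* the region at +43 bp had 29.4 and 30.4, a fold of 1.03 (0.671 to 1.55). A further *atp6v0a2a* region at +468 bp had 24.2 and 32.3, a fold of 1.33 (0.850 to 2.17). Neither interval leaves out 1. At *atp6v0a2b* (chromosome 5, 24543525 to 24544353) the average signal was 29.6 and 50.3, a fold of 1.70 (1.34 to 2.18), and its peak value was 41 and 92. The a2 subunit is known for its role in the Golgi and endosomes.

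The proton-carrying ring is built of the c and b subunits. At *atp6v0ca*, the strongest V0 start, the average signal was 99.6 (sibling) and 101.4 (mutant), a fold of 1.02 (0.844 to 1.23). At *atp6v0cb* the region nearest to the start (-51 bp) had 62.3 and 75, a fold of 1.20 (0.960 to 1.52). An upstream *atp6v0cb* region at -924 bp (chromosome 24, 39157196 to 39157522) went from 17.9 to 38.9, a fold of 2.17 (1.36 to 3.63). The core promoters of both ring copies therefore had intervals that include 1, and the gain past 2-fold lay in the weak upstream region. At *atp6v0b*, which encodes a further ring subunit, the average signal was 60.9 and 67.0, a fold of 1.1 (0.853 to 1.42).

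Subunit d joins the ring to the central stalk. The *atp6v0d1* region at -20 bp (chromosome 7, 35086226 to 35086526) had the lowest sibling signal of the 30, 14.9, against 34.1 for the mutant, a fold of 2.29 (1.33 to 4.10) on 19.9 and 45.7 tags. A second *atp6v0d1* region at -684 bp had 32.1 and 31.0, a fold of 0.966 (0.618 to 1.48). The upstream region was thus level and the one over the start higher. At *atp6v0e1*, which encodes a small membrane subunit, the average signal was 51.4 and 58.6, a fold of 1.14 (0.880 to 1.48).

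Only the mutant library had a called interval at 4 of the 13 V0 regions, those of *atp6v0a1b* (+94 bp), *atp6v0a2a* (+468 bp), *atp6v0cb* (-924 bp) and *atp6v0d1* (-20 bp). The same held for 1516 of all 14694 promoter regions. A region that enters the merged set through 1 library had to be high in that library. The 9 V0 regions called in both libraries had a median log2 ratio of 0.13.

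In the V1 sector most starts were level on the deposited scale. Those of *atp6v1c1a* and *atp6v1d* were lower in the mutant and that of *atp6v1aa* was higher, each by counting interval. Subunits A and B form the ring that binds ATP, with A catalytic. At *atp6v1aa* (chromosome 5, 24245066 to 24245847), the strongest V-ATPase start, the average signal was 127 (sibling) and 158 (mutant), a fold of 1.25 (1.1 to 1.41). At *atp6v1ab* it was 90.4 and 103.5, a fold of 1.14 (0.920 to 1.43). Among V1 starts *atp6v1aa* alone had a log2 ratio (0.31) above the promoter median, and lowess centring on mean signal lowered it to 0.04. At *atp6v1b2*, a B subunit gene, the average signal was 50.6 and 54.4, a fold of 1.07 (0.808 to 1.42). At *atp6v1ba*, another B subunit gene, the region at +110 bp had 67.3 and 68.9, a fold of 1.02 (0.825 to 1.27). A further region of *atp6v1ba* at +934 bp had 39.2 and 32.8, a fold of 0.836 (0.534 to 1.26). None of these 3 B subunit regions had an interval that leaves out 1.

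Subunit C clamps the outer stalks to V0 and leaves when the pump disassembles. At *atp6v1c1a* (gene 368907, chromosome 16, 52748087 to 52748522) the average signal was 71.1 (sibling) and 51.5 (mutant), 1.38-fold lower (1.06 to 1.80). Its copy *atp6v1c1b* had 63.4 and 62.4, a fold of 0.984 (0.722 to 1.35), and was called in the sibling only. Subunit D is the shaft of the rotor. At *atp6v1d* (gene 393935, chromosome 20, 51100460 to 51100916) the average signal was 89.9 and 60.4, 1.49-fold lower (1.18 to 1.89), the largest loss in the V1 sector. The peak value at *atp6v1d* was 133 and 97, so peak and average moved the same way.

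The other V1 starts had nearly equal values. Subunit F, also of the rotor, had 83.3 and 85.9 at *atp6v1f*, a fold of 1.03 (0.846 to 1.25). Subunits E and G form the outer stalks. At *atp6v1e1b* the average signal was 32.7 and 37.2, a fold of 1.14 (0.844 to 1.54). At *atp6v1g1* it was 122.1 and 122.5, a fold of 1.003 (0.839 to 1.19), on 261 tags in each library. On the deposited scale it was thus level at one of the best covered starts, while lowess centring gave a log2 ratio of -0.27. Subunit H bridges both sectors and holds back free V1, and *atp6v1h* had 29.2 and 25.4, a fold of 0.868 (0.572 to 1.31). Its interval is wide because only 53.1 and 46.1 tags lay behind it.

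**Figure D2:**
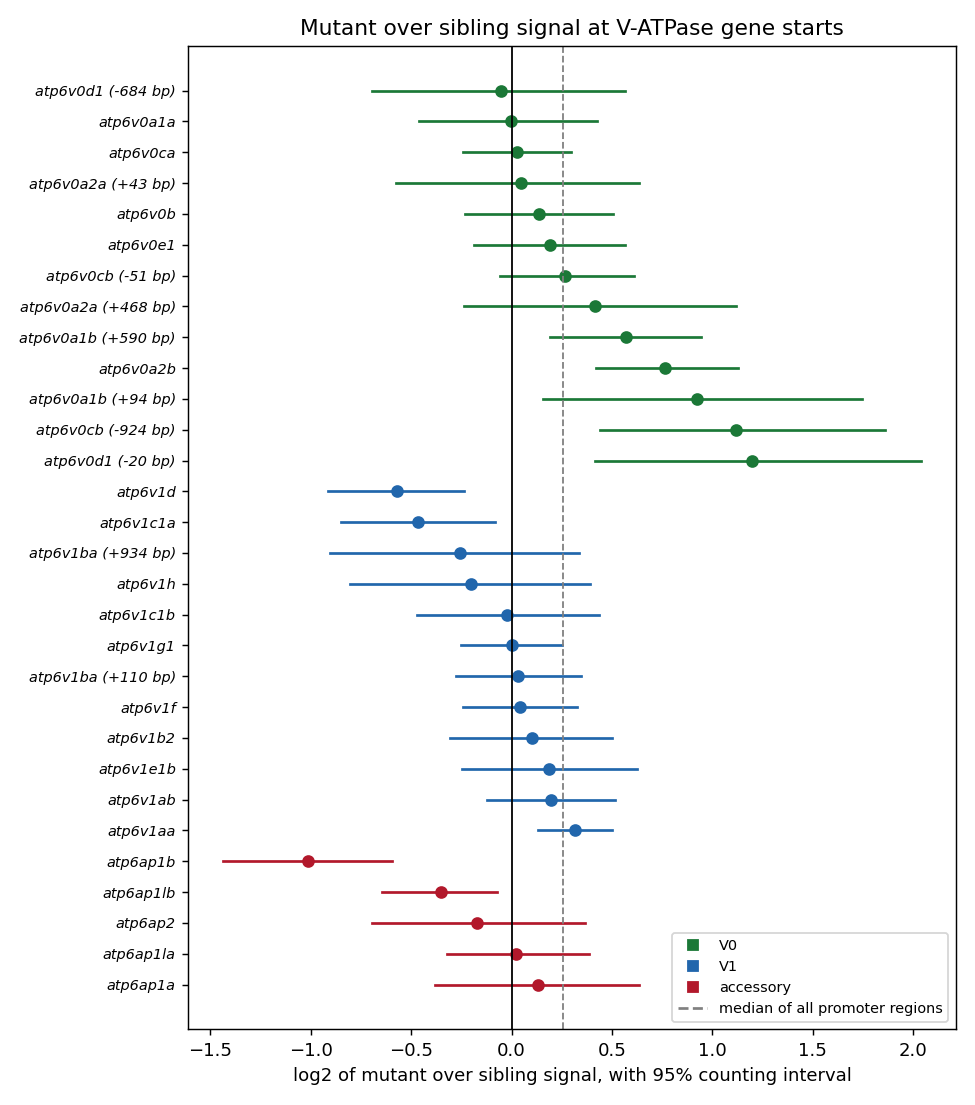
log2 of mutant over sibling signal (no added 1) at each of the 30 V-ATPase start regions, with 95% counting intervals as bars, colors for V0, V1 and accessory genes, a solid line at 0 and a dashed line at the median of all promoter regions (0.26). The intervals of *atp6ap1b*, *atp6ap1lb*, *atp6v1c1a* and *atp6v1d* lie wholly below 0.

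Accessory genes held the largest loss. ATP6AP1, called Ac45 in mammals, helps the V0 sector to assemble in the endoplasmic reticulum. At *atp6ap1b* (gene 195824) the region around the start, chromosome 23, 26079276 to 26079684, had a signal of 80.5 (sibling) and 39.8 (mutant), 2.02-fold lower (1.51 to 2.70) on 147 and 72.6 tags. Its peak value was 120 and 69. The log2 ratio of -0.997 fell just short of the 2-fold limit on the scale of signal + 1, and it was the 127th lowest of 14694 promoter regions. This is the value for which the family was proposed, and both libraries had a called interval there. At *atp6ap1a*, the other copy, the average signal was 35.4 and 38.8, a fold of 1.1 (0.769 to 1.55).

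The Ac45-like pair also had the lower ratio at its b copy. At *atp6ap1lb* (gene 561786, chromosome 23, 19564031 to 19564574) the average signal was 96.1 and 75.2, 1.28-fold lower (1.05 to 1.56). At *atp6ap1la* it was 65.3 and 66.3, a fold of 1.02 (0.80 to 1.31). ATP6AP2, known in mammals as the prorenin receptor, also takes part in building V0, and the start of *atp6ap2* had 33.9 and 30.1, a fold of 0.888 (0.618 to 1.29). All 5 accessory starts were called in both libraries, and without *atp6ap1b* their median log2 ratio was -0.07.

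Zebrafish carries duplicate copies of many of these genes, and 7 pairs of symbols that end in a and b could be set against each other. The fold at *atp6ap1a* was 2.22 times that at *atp6ap1b* (1.39 to 3.49). At *atp6v0a1b* it was 1.91 times that at *atp6v0a1a* (1.03 to 3.69), and at *atp6v0a2b* 1.64 times that at *atp6v0a2a* (1.02 to 2.73). In the 4 other pairs the interval of this quotient included 1. It was 1.36 (0.899 to 2.07) for *atp6v1c1b* over *atp6v1c1a*, 1.30 (0.952 to 1.80) for *atp6ap1la* over *atp6ap1lb*, 1.18 (0.880 to 1.60) for *atp6v0cb* over *atp6v0ca* and 1.09 (0.842 to 1.40) for *atp6v1aa* over *atp6v1ab*. The b copy had the higher ratio in all 3 V0 pairs and the lower one in both accessory pairs. For *atp6v0a1b* the value is that of the region at +94 bp, which was called in the mutant only and so had to be high there. Its stronger region at +590 bp, called in both libraries, had a fold of 1.48 (1.14 to 1.92). The *atp6v0a2b* start is shared with *trmt2a*. Nothing is therefore read from either of these V0 quotients. The ratio at *atp6ap1b* is the value for which the family was proposed. Its quotient and the order within the accessory pairs are therefore also a description and no test. Over the 7 pairs the median size of the difference was 0.43 on the log2 scale. The pairs are defined by name, and the identity of their proteins was not analysed here.

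Most of the remaining regions assigned to V-ATPase genes lay at the starts of other genes. Of the 38 regions without a member start within 1000 bp, 28 were within that distance of another gene's start and 10 were away from every listed start. No assigned region lay between 934 bp and 2143 bp from its member's start. Just inside the limit were the regions of *atp6v1ba* at +934 bp (39.2 and 32.8) and *atp6v0cb* at -924 bp (17.9 and 38.9), and just outside it the region of *atp6ap1la* at -2143 bp (35.2 and 57.3). The 38 regions had a median log2 ratio of 0.33 (0.21 to 0.43). It was 0.36 (0.24 to 0.50) for the 28 at other starts, of which 19 lay above the promoter median. For the 10 away from starts it was 0.16, with a range from -0.56 to 0.66, beside 0.06 over all 21850 gene-assigned regions away from starts.

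**Figure D3:**
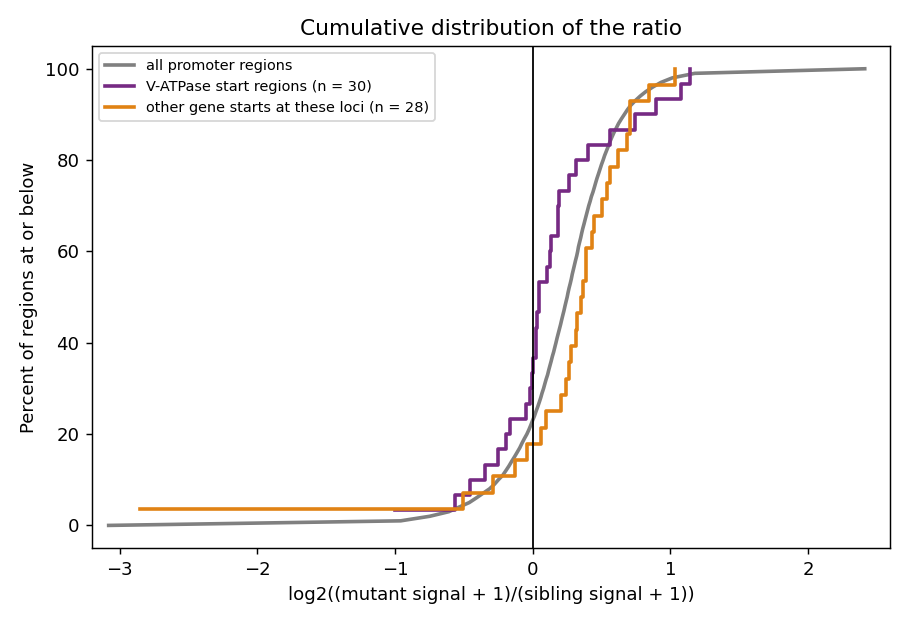
Percent of regions at or below each log2((mutant signal + 1)/(sibling signal + 1)), in gray for all 14694 promoter regions, in purple for the 30 V-ATPase start regions and in orange for the 28 regions of the same loci at other genes' starts. The purple median is 0.045, the gray 0.25 and the orange 0.36.

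None of the 10 regions away from starts passed 2-fold, beside 3.82% upward and 6.8% downward over all such regions. The strongest was 2693 bp upstream of *atp6ap2*, with 54.5 (sibling) and 68.3 (mutant), a fold of 1.25 (0.899 to 1.76). The lowest ratio was in *atp6v1ba* at +14281 bp, with 30.9 and 20.6, a fold of 0.667 (0.360 to 1.17). That region was called in the sibling only, so it had to be high there. A neighbouring region of *atp6v1ba* at +7661 bp had 30.2 and 24.3. All regions of *atp6v1ba* apart from the one at +110 bp were lower in the mutant, each with an interval that includes 1. The highest ratio was 4662 bp upstream of *atp6v1c1a*, with 23.6 and 38.0, a fold of 1.61 (0.974 to 2.81). This region upstream of *atp6v1c1a* was called in the mutant only and had to be high there. Nothing is read from its direction or from that of the *atp6v1ba* region at +14281 bp. The other 6 had log2 ratios from -0.08 to 0.43.

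Starts of V-ATPase genes were set against starts of the other genes in their loci, in 27 pairs that cover 19 members and share members. The neighbour had the higher log2 ratio in 21 pairs (77.8%), and the median difference, member minus neighbour, was -0.33. Over 9739 such pairs of all genes the neighbour was higher in 48.7% and the median difference was 0.01. By gene, 15 of the 19 members lay below the median of their neighbours. The counting interval of the quotient of both folds lay below 1 in 10 pairs and above 1 in 1 pair. Some pairs hold a region called in 1 library only, which had to be high in that library. Among them are the neighbours *cavin1a* and *ccdc167*, called in the mutant only, and the *atp6v1c1b* start, called in the sibling only. These pairs use the ratios for which the family was proposed, and nothing is read from them about the family.

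At *atp6v1d* the start 3739 bp upstream belonged to *eif2s1b*, a translation initiation factor gene, with 46.6 and 72.3. The fold at *eif2s1b* was 2.30 times that at *atp6v1d* (1.60 to 3.28), the widest such gap with the member lower. At *atp6ap1a* the start 9942 bp upstream was that of *taz* (tafazzin, an enzyme of mitochondrial cardiolipin), with 30.2 and 62.8. It was the sole region assigned to a V-ATPase gene and outside its start that was at least 2-fold higher, at 2.08-fold (1.47 to 2.91). This is 1 of 38 such regions. At least 2-fold higher were 2.16% of all promoter regions and 3.82% of all gene-assigned regions away from starts. With median or lowess centring the count was 0.

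The same order held at further loci. *rps23*, a ribosomal protein gene beside *atp6ap1la*, had 35.2 and 57.3. *slmapb*, downstream of *atp6ap1lb*, had 54.1 and 67.8. *bcor*, a corepressor gene upstream of *atp6ap2*, had 121 and 163. In each of these accessory loci the member stood below its neighbour. Next to *atp6v0b*, *b4galt2* had 47.6 and 78.4. On either side of *atp6v0ca*, the tRNA gene *trnac-gca* had 93.5 and 153 and *spsb3a* had 179 and 215. Upstream of *atp6v0a2a*, *nfkbil1* had 59.6 and 77.1. Each of these V0 genes also had a lower ratio than the neighbour. *naa50*, upstream of *atp6v1ab*, had 65.3 and 97.0. *azin1b*, upstream of *atp6v1c1b*, had 184 and 229. *fer*, upstream of *atp6v1g1*, had 73.5 and 93.9. In these V1 loci the member was the lower one too. *rpl26*, upstream of *atp6v0e1*, had 73.5 and 87.2, a ratio close to that of its member.

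The member was higher in 6 pairs. At *atp6v0a1b* the flanking starts were those of *cavin1b*, with 50.2 and 53.9, and *galnt11*, with 81.7 and 112. At *atp6v0e1* they were both regions at *tstd2* (48.0 and 33.4, 54.5 and 49.9), and at *atp6v1aa* the region at *plscr3a* (32.6 and 31.7). The *atp6v0a1b* pairs use its region at +94 bp, called in the mutant only, which had to be high there. The first *tstd2* region was called in the sibling only and had to be high there. Nothing is read from the direction of these pairs. The remaining pair stood far from the others. The start of *rgs20*, which encodes a regulator of G protein signaling and lies 2393 bp upstream of *atp6v1h*, had 33.4 (sibling) and 3.75 (mutant), 8.90-fold lower (3.42 to 36.6) on 37.7 and 4.24 tags. On the scale of signal + 1 it was the only region assigned to a V-ATPase gene that was at least 2-fold lower. The *atp6ap1b* start fell just short of the limit. At least 2-fold lower were 0.857% of all promoter regions and 6.8% of all gene-assigned regions away from starts. The *rgs20* start was second from the lowest of all 14694 promoter regions. The *atp6v1h* start did not follow it, and the fold there was 7.73 times that at *rgs20* (2.64 to 33.8). The *rgs20* region was called in the sibling only, so it had to be high there.

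**Figure D4:**
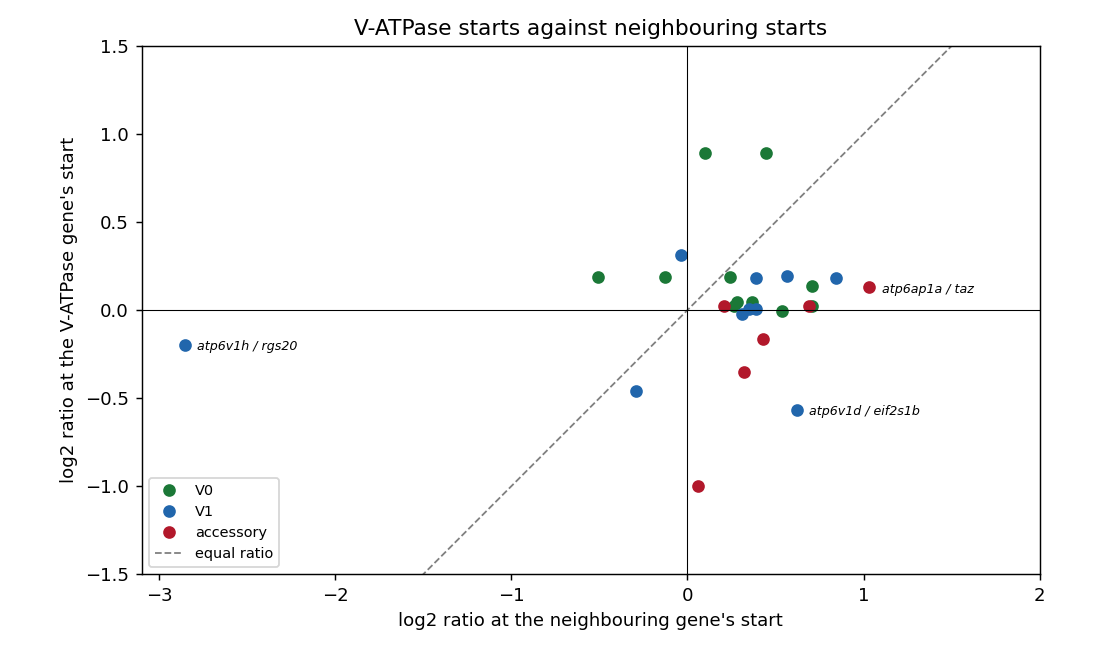
log2 ratio at the V-ATPase gene's start (vertical) against that at a neighbouring gene's start assigned to the same V-ATPase gene (horizontal), both as log2((mutant signal + 1)/(sibling signal + 1)), for 27 pairs, with colors by sector and a dashed line where both are equal. Of the 27 points 21 lie below the dashed line, and the pair of *atp6v1h* with *rgs20* lies far to the left at -2.86.

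Some start regions, 3 in all, were shared with another gene and cannot be assigned to a V-ATPase gene alone. They were those of *atp6v1f* with *lamtor4*, *atp6v1aa* with *phf23a* and *atp6v0a2b* with *trmt2a*, and their log2 ratios were 0.04, 0.31 and 0.75. Without them the V1 median was -0.01 over 10 regions.

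A value per gene that averages all assigned regions can differ from the value at the gene's own start. Averaged that way, the 26 genes had a median log2 ratio of 0.25 beside 0.20 over all genes. In the average, *atp6v1h* was at -1.05 through the *rgs20* region, although its own start was at -0.20. *atp6ap1a* was at 0.56, with 0.13 at its own start. *atp6v1c2* was at 0.50 from a single region that lies at the start of *nol10*, with 25.6 and 36.7.

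Genes around the pump were taken from 4 lists, each read through the promoter value per gene. The V-ATPase members had a median log2 ratio of 0.04, with 20 of 25 (80%) below the median of all genes, which was 0.25. Of 18 listed genes for assembly, regulation and further subunits, 14 were measured, with a median of 0.32 and 5 of 14 below. The lowest were *ccdc115*, an assembly factor gene (42.3 and 34.2, a fold of 0.809, 0.544 to 1.19), and *oxr1b* (30.9 and 26.9). The highest were *tmem199*, the partner of *ccdc115* in assembly (26.9 and 47.9, a fold of 1.78, 1.41 to 2.27), and *rnaseka*, for a small protein bound to the pump (20 and 37.6). Both assembly partners thus lay at opposite ends of the list, although the interval at *ccdc115* includes 1. The a3 subunit, which the name rule leaves out, is encoded by *tcirg1a* (21.1 and 25.7) and *tcirg1b* (32.9 and 50.9). The regions of *rnaseka*, *tcirg1a* and *tcirg1b* were called in the mutant only, so they had to be high there, and nothing is read from their ratios. They and *oxr1a*, also called in the mutant only, are among the 14 values behind the median of this list. The *oxr1b* region was called in the sibling only, and nothing is read from its ratio either.

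Of 63 listed lysosomal membrane and hydrolase genes 42 were measured, with a median of 0.16 and 26 (61.9%) below the all-gene median. One was at least 2-fold lower, *grna*, a progranulin gene, with 31.2 and 15.0, and none was 2-fold higher. Over all genes with a promoter region, 0.788% were at least 2-fold lower and 1.79% at least 2-fold higher. The next lowest of the list was *glb1*, for beta-galactosidase, with a log2 ratio of -0.73. The regions of *grna* and *glb1* were called in the sibling only, so they had to be high there, and nothing is read from their ratios. The highest were *asah1a*, for acid ceramidase (0.74), and *ctso*, for cathepsin O (0.72). Of 40 genes of the TFEB family and of mTORC1 at the lysosome 33 were measured, with a median of 0.33 and 13 below. Their lowest were *nprl2*, for a part of the GATOR1 brake on mTORC1 (-0.73), and *tfe3b*, for a TFEB relative (-0.64). Their highest were *flcn*, for folliculin (0.83), and *tsc1b*, for a further brake on mTORC1 (0.74). The *tfe3b* region was called in the sibling only, and nothing is read from its ratio. No gene of this list passed 2-fold, beside the same shares of all genes.

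The mitochondrial ATP synthase, the rotary enzyme that runs in the direction of ATP synthesis, was measured at 17 of 38 listed symbols, of which many are alternative names of 1 gene. The median was 0.36 with 3 of 17 below the all-gene median. *atp5j* (-0.12) and *atp5o* (0.15) were lowest and *atpif1a* (0.85) and *atp5d* (0.66) highest. None passed 2-fold. The medians of the 4 lists thus ran from 0.16 for lysosomal genes to 0.36 for the ATP synthase, all above the 0.04 of the V-ATPase members. The family was proposed for the low ratio at *atp6ap1b*, and the lists hold regions called in 1 library only. This order is therefore a description and no test.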

How the data were processed

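Per the labels, 1 ATAC-seq library came from *hos* mutant hearts and 1 from sibling hearts, and groups follow the genotype labels. The submitters' processing notes name MACS2 2.1.0 and the danRer11 build. Not given in the sources used here are the aligner, duplicate handling, read shift and the scaling of each library, so an offset common to all regions cannot be assigned to tissue or depth. The authors deposited merged regions with an average signal and a peak signal per library, distances to genes, and a gene table of the mean peak signal over assigned regions. The log2 ratios and shrunken fold changes of the authors' own comparison were also deposited and not used.

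Tags were estimated as signal times length over 224 and rounded for intervals. Promoter regions lay within 1000 bp of a start, a pseudocount of 1 was added for log2 ratios, and 2-fold was the limit for counts. Intervals are exact binomial 95% on tags, conditional on their sum, and order statistics for medians. Quotients of folds used an exact conditional interval. Depth limits precision most at the weakest starts, and tags are not independent molecules. Members and lists were chosen with earlier results of these data known. Named were every start region, other assigned regions past 2-fold or with a signal of at least 60.4 (the 75th percentile), and the 2 highest and 2 lowest of each list; others, such as *tcirg1a* and *tcirg1b*, were named after their values were seen. The list of pump assembly genes also holds *atpaf1*, which serves the mitochondrial ATP synthase. The values of 1 neighbouring start are not reported here by name. Promoter motifs, sequences and protein identity were not analysed here. The region ratio, its interval, the 2-fold count and the interval of a median were tested on simulated data. Simulated tags were drawn independently, with 4-fold changes set at strong promoter regions. Changes at weak starts, the centring and the quotients of folds were not tested in this way. Alternatives were median or lowess centring (span 0.2), pseudocounts of 0.1 and 5, peak signal, limits of 500 and 2000 bp, 1 region per gene, regions listing no outside gene, a signal floor of 39.3, calls in both libraries, folds of 1.5 and 4, and the gene table. Tools were matplotlib 3.10.9, statsmodels 0.14.6, scipy 1.17.1, pandas 2.3.3 and numpy 2.4.6 under Python 3.11.15.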

Additional observations from a re-analysis of the deposited data

How the results depend on the processing

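No paired analysis was possible because each group has 1 library, and no replicate could be left out. The sign of the median log2 ratio at V-ATPase starts depended on the scaling, so it is best read against other promoters. It was 0.045 as deposited, -0.11 with the median of all regions set to 0, -0.11 with lowess centring and -0.13 over the 4 regions that list no outside gene. Under the same 3 settings the V1 median of 0.02 became -0.13, -0.22 and -0.25. Over regions with no other start within 1000 bp, chosen after seeing the data, it was -0.0089. The V0 median of 0.26 became 0.11 with median centring, 0.03 with lowess centring and -0.0047 from the single region listing no outside gene. The accessory median was below 0 under each setting that gave a value, also without *atp6ap1b*, which was chosen after seeing the data. Of 30 starts 2 were 2-fold higher. This count was 0 with median centring, a pseudocount of 5, the signal floor, calls in both libraries, no outside gene listed or a 4-fold limit. It was 1 with a 500 bp limit or with the nearest or the strongest region per gene, 3 with peak signal and 4 at 1.5-fold. The count of lower starts, 0, became 1 with median centring, lowess centring, a pseudocount of 0.1 or a 1.5-fold limit. The region lower by 2-fold under the first 3 was that of *atp6ap1b*. The median of 0.33 away from member starts became 0.18 with median centring, 0.10 with lowess centring and 0.16 without other starts. The 1 higher region there became 0 with median centring, lowess centring, a pseudocount of 5, no other start or a 4-fold limit, and 7 at 1.5-fold. The 1 lower region, at *rgs20*, became 0 with lowess centring, the floor, calls in both libraries or no other start. Shares over all regions were taken only at 2-fold on the deposited scale. Counts at other limits or scalings therefore have no background here, and nothing is read from them. At single starts, peak signal gave 1.15 at *atp6v0a2b*, and lowess centring gave 0.04 at *atp6v1aa* and -0.27 at *atp6v1g1*. Fewer regions enter where a setting filters them; for the others the cause was not tested.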
